A study of Homo sapiens with 4 samples.

Results

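The combined treatment of KBM5 cells with IM and DSF was compared, gene by gene, with the level that the separate differences of IM and DSF would add up to. For each gene the difference between the IM-DSF and IM libraries was taken on log2(FPKM + 1), and the difference between DSF and CTR was subtracted from it. FPKM counts fragments relative to gene length and sequencing depth. The remainder is called the departure from additivity here. It is 0 when DSF changes a gene by the same factor with and without IM, positive when IM-DSF lies above the additive level and negative when it lies below. Of 50868 genes in the deposited table, 11004 averaged 1 FPKM or more across the libraries. Leaving out hyphenated names and genes described as pseudogenes or readthrough transcripts gave the 9822 genes examined, of which 9286 are protein-coding.

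KBM5 is an established human line from chronic myeloid leukemia in blast crisis that carries the BCR-ABL fusion kinase. The groups were untreated cells (CTR), cells given DSF, cells given IM, and cells given both (IM-DSF), with 1 stranded mRNA library each. The labels spell out neither code and give no dose or time. The codes are kept below and read as disulfiram and imatinib. The study's title concerns GPX4, which detoxifies lipid peroxides, together with BCR-ABL. There is no replicate check, so every value below describes 4 libraries, no p-value is given, and genes are called only by a departure of at least 1 log2 unit (2-fold) in size.

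Imatinib blocks the ATP site of BCR-ABL and thereby the STAT5 and ERK signals that keep chronic myeloid leukemia cells growing. Disulfiram inhibits aldehyde dehydrogenases, and its copper complex binds NPL4, an adaptor of the p97 segregase that feeds ubiquitinated proteins to the proteasome. Cells meet oxidant and metal stress with NRF2, a transcription factor that drives glutathione synthesis, cystine import and heme breakdown.

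The libraries were of like depth, with denominators of 12.4 (IM-DSF) to 15.8 (IM), in units of 1e6 fragments, recovered from the low values of single-exon genes. The number of genes at 1 FPKM or more ran from 10677 in CTR to 11238 in IM-DSF. The lineage markers detected were mainly those of myeloid cells: 16 of 20 granule genes passed the filter, against 2 of 19 lymphoid, 2 of 20 erythroid and 3 of 13 megakaryocyte genes. In bulk RNA, fewer cells of a kind and less RNA per cell cannot be told apart.

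A departure of at least 1 was reached by 127 genes, 1.29% of those examined, and a departure of -1 or less by 112 genes, 1.14%. Most of the 127 positive genes were lower with each drug alone: both single-drug differences lay below 0 in 98. The 112 negative genes were the mirror image, with both single-drug differences above 0 in 97. In 93 of the positive and 83 of the negative genes, the DSF difference had opposite signs without and with IM. The plot of the DSF difference with IM against that without IM shows this as points in the upper left and lower right. These counts follow in part from how the departure is built, since both single-drug differences enter it with a minus sign. The positive genes nearest the size limit were AC108449.2 at 1.0005 and EDEM3 at 1.004, and the nearest genes below it were MTG2 and TCF19, each at 0.98. On the negative side PPP1R3G stood at -1.003 and VAPB at -1.004, and STMN1 (-0.997) and ANP32E (-0.995) just missed the limit.

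**Figure D1:**
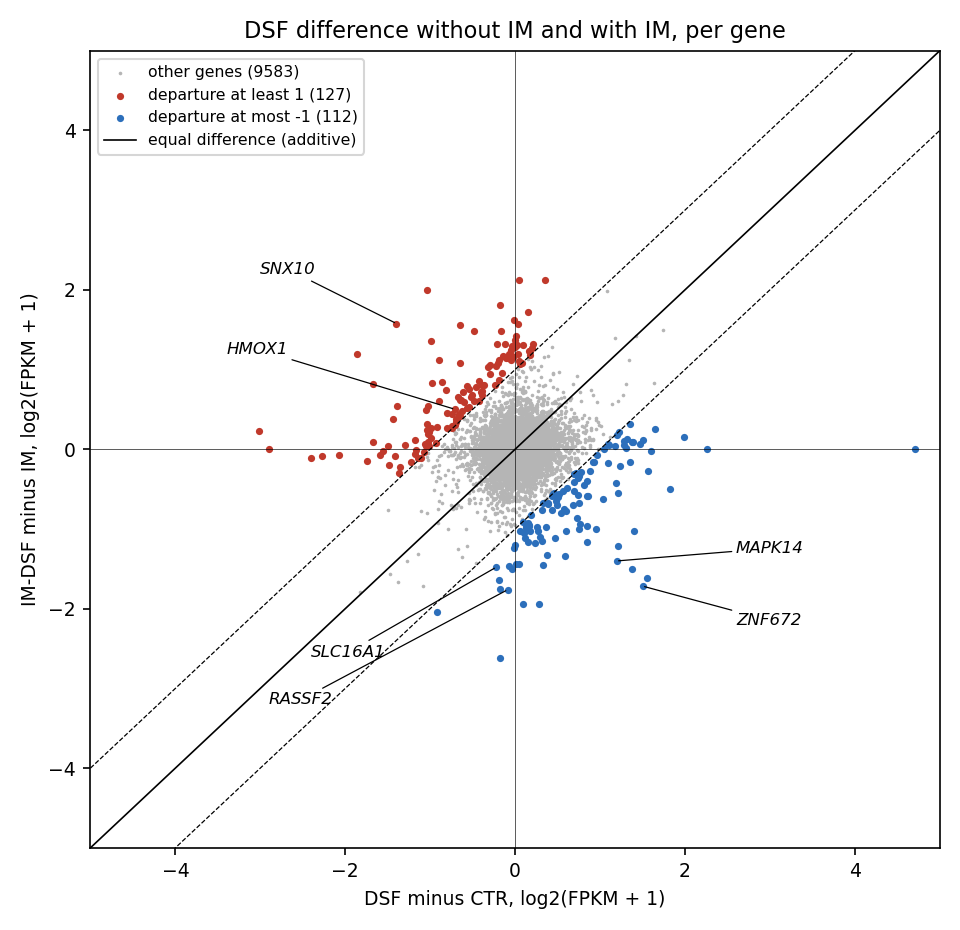
Each point is 1 of 9822 genes, with the DSF minus CTR difference on the x axis and the IM-DSF minus IM difference on the y axis, both on log2(FPKM + 1). The solid line marks additivity and the dashed lines a departure of 1 and -1; the 127 positive genes lie above and the 112 negative genes below.

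Most genes had a small departure, and most also had a small DSF difference. The departure had a median of -0.00 and quartiles of -0.18 and 0.16. To set it beside the drugs, the departure was divided by 2, so that it weighs the 4 libraries exactly as the mean DSF difference and the mean IM difference do. On that scale its SD over genes was 0.184, against 0.201 for DSF and 0.324 for IM. A contrast of at least 0.5 in size was reached by 239 genes for the departure, 289 for DSF and 982 for IM. The number of genes departing from additivity was thus close to the number reached by DSF itself on the same measure. The share past the limit was larger among low genes: 3.14% of 4650 genes with a mean of 1 to 5 FPKM, 2.06% of 3878 with 5 to 20, 0.947% of 1162 with 20 to 100, and 1.52% of 132 at 100 or more. The median counting error of a departure was 0.147 log2 units. In 119 of the 127 and 105 of the 112 called genes, the 95% counting interval of the ratio of ratios, (IM-DSF/IM)/(DSF/CTR), lay to 1 side of 1. The intervals use the same values that picked these genes. A departure of 1 far exceeds the median counting error, so these counts give no separate support for the calls.

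**Figure D2:**
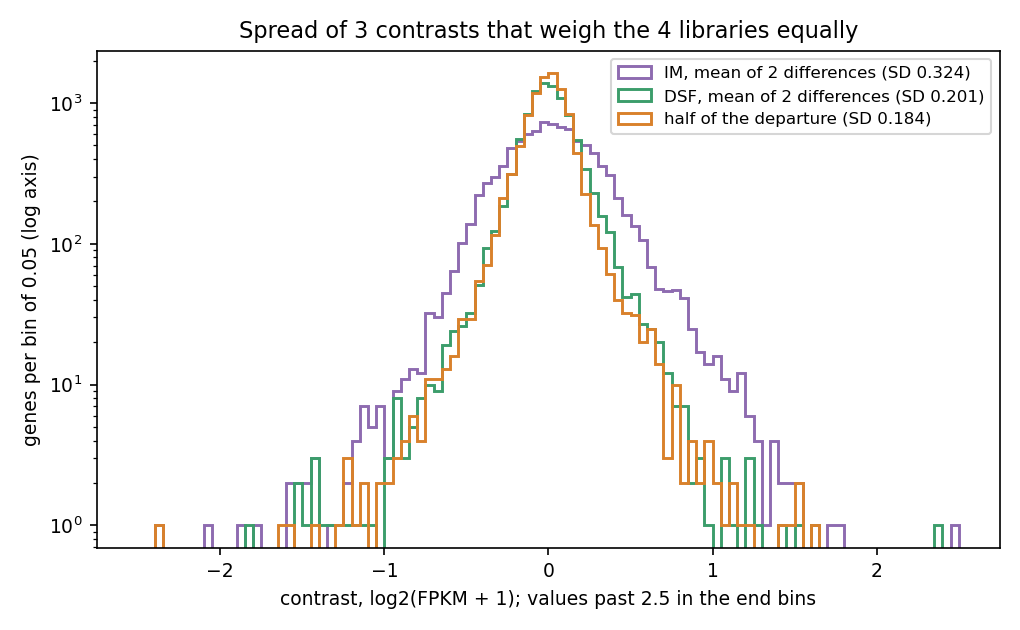
Number of genes (log axis) per bin of 0.05 log2 units for the departure divided by 2, the mean DSF difference and the mean IM difference. The first 2 nearly coincide (SD 0.184 and 0.201), and the IM contrast is wider (SD 0.324).

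The called genes were sorted by which library stood apart. A library stands apart when its distance to the nearest of the other 3 is at least the range of those 3. A gene is crossed when CTR and IM-DSF lie together above or together below DSF and IM. IM-DSF stood apart in 23 positive (18.1%) and 26 negative genes (23.2%), against 15.5% of all genes examined. A single-drug library stood apart in more of the positive than of the negative genes, DSF in 20 (15.7%) against 6 (5.36%) and IM in 25 (19.7%) against 12 (10.7%), with 6.61% and 7.59% over all genes. CTR stood apart in 21 positive (16.5%) and 31 negative genes (27.7%), where the departure rests on the untreated library alone; the share over all genes was 15.7%, close to that of the positive genes. The commonest shape in both directions was crossed, with 34 genes each, or 26.8% and 30.4%, against 8.44% of all genes examined. That excess is built into the choice of genes, since the crossed shape is the contrast that the departure measures.

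**Figure D3:**
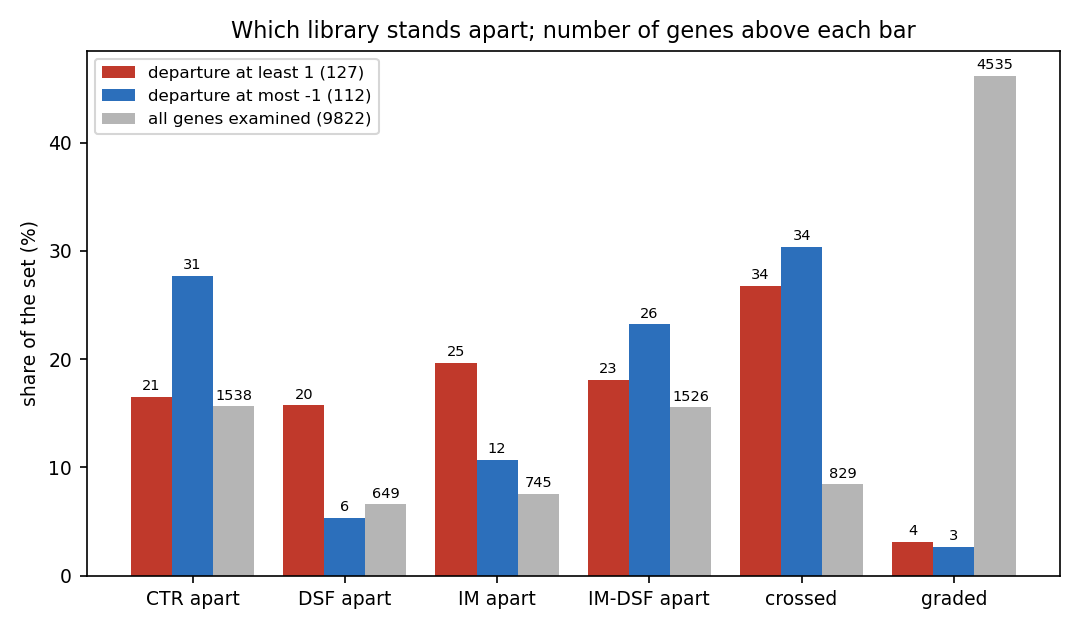
Bars give the share of genes in each shape among the 127 positive, 112 negative and all 9822 genes, with the number of genes above each bar. Crossed genes make up 34 of the called genes in each direction and 829 of all genes.

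Genes of the NRF2 response lay mostly above additivity, while their median stayed below CTR in every treated library. The median differences from CTR were -0.25 with DSF, -0.31 with IM and -0.20 with both. Of 22 list members past the filter, 16 had a positive departure, 6 reached 0.5 and none reached -0.5, with a median of 0.25 against -0.00 over all genes, of which 491 of 9822 reached 0.5. The median was 0.15 with a mean of at least 5 FPKM and 0.09 without the filter. SLC7A11, the cystine importer subunit of system xc-, had 11.3 FPKM in CTR cells, 8.38 with DSF, 7.73 with IM and 14.3 with the combination. Each drug alone went with a lower level and both together with the highest of the 4. The additive level would be 5.68 FPKM, the departure was 1.195, and the ratio of ratios was 2.48 (95% counting interval 2.24 to 2.76). SLC7A11 lies at chr4:138164097-138242349 on the minus strand (GRCh38).

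HMOX1, the heme oxygenase that frees iron from heme, had the same shape at a low level. It had 2.04 FPKM untreated, 0.857 under DSF, 1.21 under IM and 2.14 under both, against an additive level of 0.352. Its ratio of ratios of 4.19 carried a wide interval of 2.37 to 7.41. CTR and IM-DSF were thus alike, and the single-drug libraries low. FTH1, the ferritin heavy chain that stores iron, stood at 66.6 FPKM untreated, 43.4 with DSF, 45.7 with IM and 69.3 with both, with a departure of 1.198. The value was smaller over all copies: summed with the 24 FTH1 pseudogenes in the table, the levels were 521, 343, 400.0 and 361, and the departure was 0.45. Most of that sum is pseudogene signal, and how reads were divided among the copies was not tested. The light chain FTL, far more abundant, had 3235, 3526, 4581 and 4232 FPKM and a departure of -0.24.

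Other NRF2 targets were lower with each drug alone, and no lower with both than with IM. NQO1, a quinone reductase, had 6.36 FPKM in CTR and 3.55, 2.64 and 3.18 in DSF, IM and IM-DSF, a departure of 0.90. ME1, the cytosolic malic enzyme that makes NADPH, had 18.0, 13.2, 13.6 and 15.3 FPKM (0.59). GCLM, the modifier subunit of the first glutathione enzyme, had 11.2, 8.605, 8.95 and 9.63 FPKM (0.44). In these genes CTR alone stood apart as the highest library. MAFG, a partner of NRF2 on DNA, had its low value in DSF (22.0, 7.59, 24.97 and 23.5 FPKM, departure 1.34) and overlaps SIRT7 on the same strand. Members at or below 0 included TXN (-0.21), TALDO1 (-0.24) and GCLC (-0.01).

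The NRF2 element was searched as TGACNNNGC on both strands in RefSeq promoter windows of GRCh38.p14, from 250 bases before to 50 after the start site. Of the 15 list members with a window, 4 held it (26.7%), against 15.6% of the windows of genes examined and 13.6% of all 27305. Other lists held it as well, with 8 of 21 windows in the ATF4 list and 4 of 11 in the granule list. Among called genes it was in 10 of 72 windows of positive genes (13.9%) and 13 of 73 of negative genes (17.8%), both close to these backgrounds. HMOX1, FTH1 and SLC7A11 had no window, so their promoters were not searched. MAFG and NQO1 had windows without these letters. The windows of GCLM (chr1:93909381-93909680, minus strand), ME1 (chr6:83431002-83431301, minus strand) and PGD (chr1:10398814-10399113, plus strand) are shown because these 3 targets lay above additivity without a same-strand overlap. Capitals mark the matched element, in GCLM and PGD on the opposite strand, and ME1 holds a match on each strand.
GCLM: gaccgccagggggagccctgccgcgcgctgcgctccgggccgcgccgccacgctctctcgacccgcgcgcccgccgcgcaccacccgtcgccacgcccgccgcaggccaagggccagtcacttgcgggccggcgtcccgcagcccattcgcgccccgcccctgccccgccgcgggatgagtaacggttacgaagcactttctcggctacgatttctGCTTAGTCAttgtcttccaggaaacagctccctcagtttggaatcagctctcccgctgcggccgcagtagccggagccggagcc
ME1: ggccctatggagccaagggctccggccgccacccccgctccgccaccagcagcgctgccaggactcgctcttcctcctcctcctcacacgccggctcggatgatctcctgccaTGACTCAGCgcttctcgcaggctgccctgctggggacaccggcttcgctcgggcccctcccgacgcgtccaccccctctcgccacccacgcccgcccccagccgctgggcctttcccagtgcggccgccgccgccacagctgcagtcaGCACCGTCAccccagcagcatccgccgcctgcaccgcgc
PGD: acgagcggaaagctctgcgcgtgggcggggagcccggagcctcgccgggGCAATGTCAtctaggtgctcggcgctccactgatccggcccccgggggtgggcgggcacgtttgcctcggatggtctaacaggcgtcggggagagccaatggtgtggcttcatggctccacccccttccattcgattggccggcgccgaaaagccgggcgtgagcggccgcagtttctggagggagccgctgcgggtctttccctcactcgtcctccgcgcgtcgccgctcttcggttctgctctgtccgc

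The wider lists around lipid peroxidation and iron had smaller medians. Of 19 ferroptosis genes, 14 lay above 0 and 5 reached 0.5, with a median of 0.08, a share at 0.5 close to that of the NRF2 list; FTH1 and SLC7A11 are shared with the NRF2 list. SAT1, the polyamine acetyltransferase, had 4.23, 4.58, 7.27 and 12.8 FPKM (in the order CTR, DSF, IM, IM-DSF, used for all runs of 4 values), so IM-DSF was the highest (0.65). GPX4 itself had 19.6, 20.1, 19.7 and 17.6 FPKM, a departure of -0.19 with a ratio of ratios of 0.872 (0.738 to 1.03), and its interval included 1. In the iron and heme list (25 genes, median 0.08), 16 lay above 0 and 9 below. Its 2 members past 1 were HMOX1 and FTH1, both shared with the NRF2 list. The 1 member at -1 or less was ALAD, which joins 2 aminolevulinate molecules in heme synthesis. ALAD had 1.68 FPKM in CTR and 7.14, 7.98 and 7.88 in DSF, IM and IM-DSF. Each drug alone went with the full higher level and the combination added nothing, a departure of -1.62.

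Sterol synthesis, which makes cholesterol from acetyl-CoA, also lay above additivity: 17 of 22 genes were above 0, with a median of 0.19, 3 at 0.5 or more and none at -0.5 or less. Its median differences from CTR were -0.13 with DSF, -0.10 with IM and -0.13 with both. HMGCS1, which makes the HMG-CoA that the pathway starts from, had 15.7 FPKM in CTR cells, 11.1 with DSF, 6.56 with IM and 11.96 with the combination. IM alone was low, and with DSF added the level was close to that of DSF (departure 1.24, ratio of ratios 2.57, 2.22 to 2.98). SC5D, a late desaturase of the pathway, had 1.79, 1.73 and 1.996 FPKM in CTR, DSF and IM and 5.67 in IM-DSF, so the combination alone was high (1.18). DHCR7, the last reductase towards cholesterol, had 12.8, 10.98, 8.56 and 11.6 FPKM (0.60), with IM alone as the lowest library.

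**Figure D4:**
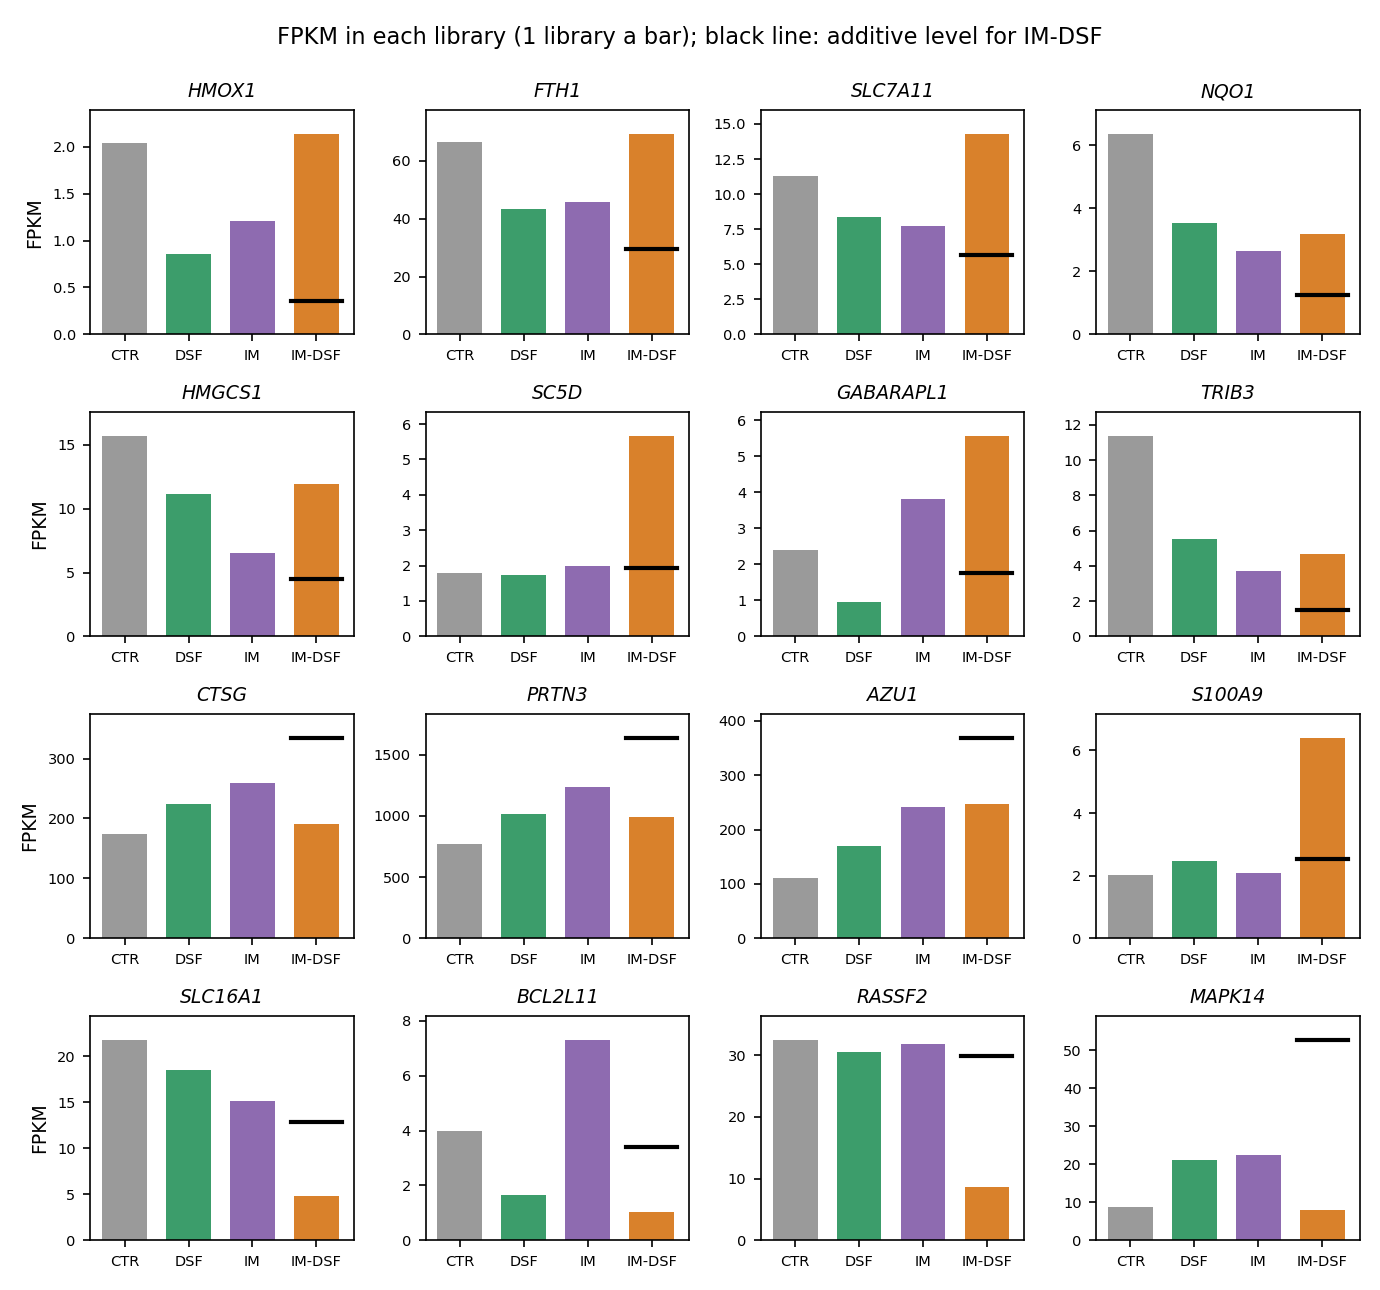
FPKM of 16 genes in the CTR, DSF, IM and IM-DSF libraries (1 bar a library), with the additive level for IM-DSF as a black line. IM-DSF stands above the line in the upper 2 rows and in S100A9, and below it in CTSG, PRTN3, AZU1 and the bottom row.

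MDM2, a ubiquitin ligase, had 1.77, 1.26, 1.23 and 3.63 FPKM and a departure of 1.34, with IM-DSF alone as the highest library. It overlaps other genes on its strand, and summed with them the departure was 1.01. No such shape was seen in the growth arrest gene GADD45A (2.66, 4.32, 2.43 and 2.24 FPKM, departure -0.62).

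Among 14 genes of the BCL2 family, which set the threshold for mitochondrial cell death, 9 lay below 0, with a median of -0.12. BCL2L11 encodes BIM, the killer protein known to rise when BCR-ABL is inhibited. It had 3.99 FPKM in CTR cells, 1.64 with DSF, 7.32 with IM and 1.02 with the combination. The IM library was the highest of the 4 and the combination the lowest, below the additive level of 3.41 (departure -1.13, ratio of ratios 0.338, 0.253 to 0.452). BAD, another promoter of death, had 3.18, 4.59, 3.94 and 2.97 FPKM (-0.73). The large value of BCL2L2 (2.195) rests on 0.396 FPKM in DSF against 5.32 to 5.76 in the other libraries. It overlaps the readthrough gene BCL2L2-PABPN1, and summed with it the departure was 0.51.

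Stress programs tied to protein damage stayed close to additivity. The medians were 0.02 for 20 heat shock genes, 0.02 for 22 genes of the endoplasmic reticulum response and 0.06 for 32 proteasome genes. For 16 genes of the NPL4 and p97 system, in which NPL4 binds the copper complex of disulfiram, the median was 0.09. The largest heat shock value was that of SERPINH1, a collagen chaperone (6.12, 3.34, 2.33 and 2.90 FPKM, departure 0.94), where CTR alone stood apart. NPLOC4, which encodes NPL4, departed by 0.29. The 8 aldehyde dehydrogenase genes had a median of -0.05, none at 0.5 in either direction. The 18 metal response genes had a median of -0.02, or 0.09 without overlapping genes. Within it SLC30A1, a zinc exporter induced by metals, had its low value in DSF (18.5, 13.2, 17.0 and 18.0 FPKM, 0.53), and COX17, a copper chaperone of cytochrome oxidase, was low in IM-DSF (7.501, 7.44, 6.27 and 3.29, -0.75).

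Amino acid stress genes under ATF4 split (25 genes, median -0.06). TRIB3, a pseudokinase induced by ATF4, had 11.4 FPKM untreated, 5.52 under DSF, 3.69 under IM and 4.69 under both. All 3 treated libraries were low, and the combination was no lower than IM (departure 1.203). The glutamine importer SLC1A5 went the other way, with 77.2, 69.0, 49.3 and 30.01 FPKM, lowest in IM-DSF (-0.54). MTHFD2, a mitochondrial folate enzyme, had the same order (35.5, 32.2, 24.6 and 15.3 FPKM, -0.52).

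Lists of signals below BCR-ABL had small negative medians, with larger departures of single genes in both directions. Among 16 STAT5 targets the median was -0.10, with 6 above 0. CISH, the feedback inhibitor that reads out STAT5, had 8.18, 4.74, 1.68 and 1.74 FPKM, and the level with both drugs was no lower than with IM alone (0.71). The kinase gene PIM1 was lower with each step (16.0, 8.18, 4.67 and 2.63 FPKM) and departed by 0.25. Of 22 ERK immediate early genes, 17 lay below 0, with a median of -0.12, among them the phosphatase gene DUSP2 (7.23, 8.95, 6.94 and 4.90 FPKM, -0.70) and the AP-1 gene JUND (15.4, 16.5, 20.1 and 14.7, -0.51). Of the 29 kinase adaptor genes (median -0.07), DOK1, a brake on BCR-ABL signalling, was low in IM-DSF (4.34, 4.54, 5.71 and 2.30 FPKM, -1.08). GRB2, the adaptor that links BCR-ABL to RAS, was high there (11.8, 13.6, 16.8 and 34.9 FPKM, 0.82) and overlaps another gene on its strand. ABL1 (33.99, 34.7, 35.1 and 34 FPKM) departed by -0.07 and BCR by 0.49, the latter with a same-strand overlap.

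Granule genes of the neutrophil lineage had the lowest median among lists of 10 or more genes: 11 of 16 were below 0 and 5 at -0.5 or less, with a median of -0.36, against 6.04% of all genes at -0.5 or less. The azurophil granule genes CTSG, PRTN3, AZU1 and ELANE were higher with each drug alone and did not add up with both. CTSG, cathepsin G, had 174 FPKM in CTR cells, 225 with DSF, 260.0 with IM and 191 with the combination, so the combination lay between CTR and the single drugs (departure -0.81, ratio of ratios 0.570, 0.536 to 0.606). PRTN3, proteinase 3, had 769, 1016, 1239 and 989 FPKM against an additive level of 1638 (-0.73). AZU1, azurocidin, had 111, 169.5, 241 and 247 (-0.57), and ELANE, neutrophil elastase, 372, 526, 589.8 and 619 (-0.43), where IM-DSF equalled or slightly exceeded IM. AZU1, PRTN3 and ELANE are neighbours on chromosome 19. CSF3R, the G-CSF receptor, was still highest in IM-DSF (5.003, 9.50, 18.0 and 22.1 FPKM) but below its additive level of 32.3 (-0.53).

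Other myeloid genes, S100A9 and MS4A3 of the same list among them, did not share this. S100A9, a calprotectin subunit, had 2.03, 2.48, 2.08 and 6.41 FPKM, with IM-DSF alone high (1.07, ratio of ratios 2.52, 1.10 to 5.81). MS4A3, a marker of granulocyte and monocyte progenitors, had 8.54, 8.44, 11.03 and 18.6 FPKM (0.72). LYZ, lysozyme, was near additive (154, 217, 399 and 599 FPKM, 0.10). The 17 monocyte genes had a median of 0.10, with 9 above 0, and the median was -0.05 over the 11 without a same-strand overlap. Of the 8 stem cell genes past the filter, 6 lay below 0 (median -0.32). They include MYB, high in DSF alone (31.0, 41.5, 32.6 and 32.9 FPKM, -0.40), BMI1, low in IM-DSF alone (9.64, 9.31, 9.34 and 6.35, -0.45), and the leukemia stem cell marker IL1RAP (2.78, 2.13, 3.66 and 1.79, -0.47); the latter 2 have a same-strand overlap.

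**Figure D5:**
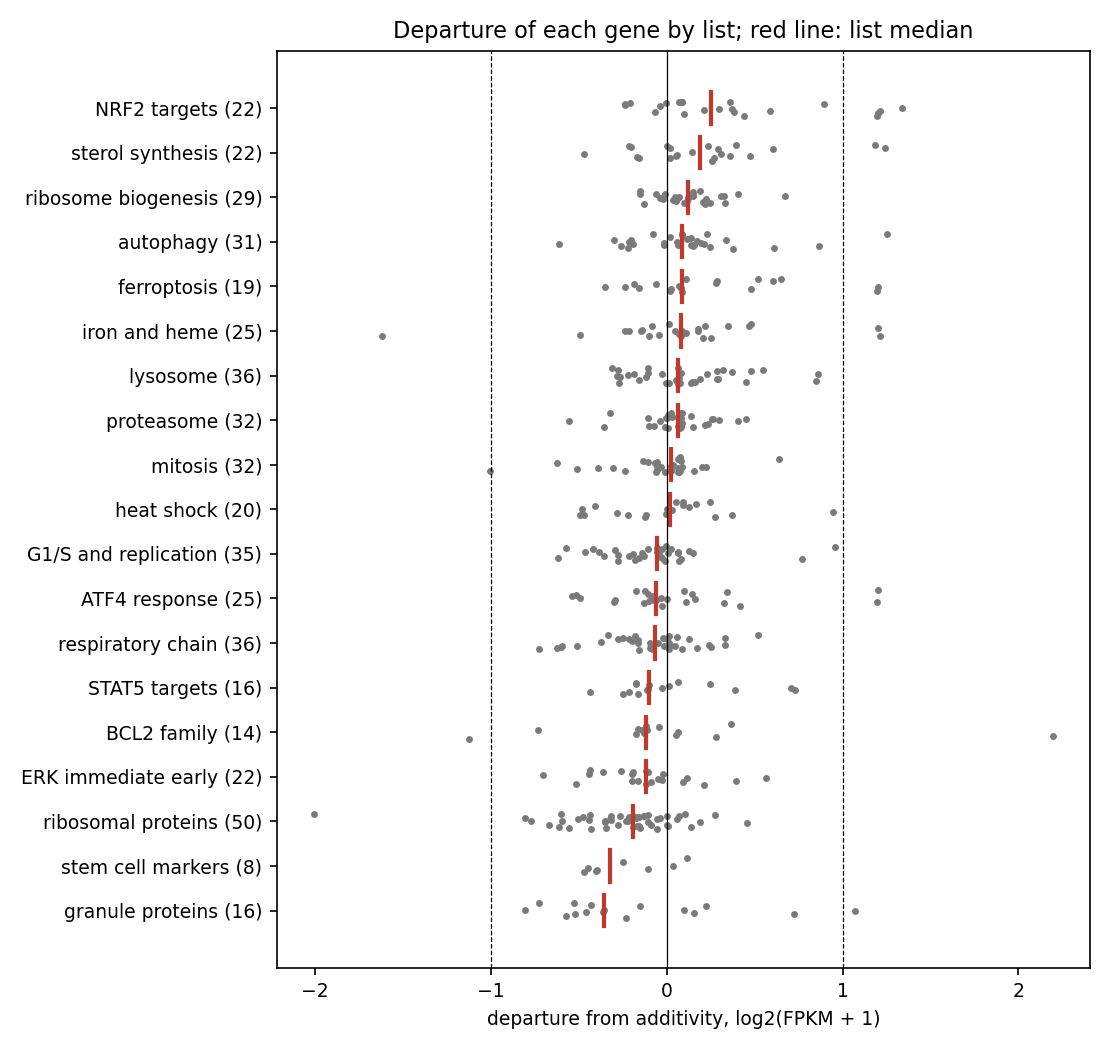
Departure of each gene (x axis, log2(FPKM + 1)) by gene list, with the number of genes in brackets and the median in red. Medians run from -0.36 for granule genes to 0.25 for NRF2 targets, and most genes lie between the dashed lines at -1 and 1.

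Genes that build ribosomes and genes of the ribosome itself had medians of opposite sign. Of the 50 cytosolic ribosomal protein genes listed, 41 lay below 0, with a median of -0.19. At -0.5 or less were 9 (18%), against 6.04% of all genes. The list does not hold every such gene. RPL29, a cytosolic ribosomal protein gene outside it, went the other way (147, 93.1, 91.0 and 195 FPKM, departure 1.74). RPS18 had 352 FPKM untreated, 535 under DSF, 605 under IM and 538 under both (-0.77). Its departure was -0.59 when 5 pseudogenes were added. RPLP2, of the stalk, had 151, 178, 194 and 130.2 (-0.80). RPL37 had 73.8, 134, 151 and 67.2, with CTR and IM-DSF low and the single-drug libraries high (-2.01, and -1.79 with 14 pseudogenes). Ribosomal proteins have many near-identical copies, and RPL37 and RPLP2 also overlap other genes on their strand, so single values are uncertain. Of 29 ribosome biogenesis genes, 22 lay above 0 (median 0.12). FBL, the methyltransferase fibrillarin, had 86.6, 65.8, 57.3 and 69.8 FPKM (0.67), and DDX21, a nucleolar helicase, 92.9, 73.2, 49.8 and 49.3 (0.33).

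Proliferation genes were mostly additive. The 32 mitosis genes had a median of 0.02 and the 35 genes of G1/S and replication one of -0.05, with 25 below 0. The licensing factor CDT1 (21.5, 23.7, 19.3 and 13.5 FPKM, -0.62) and thymidine kinase TK1 (11.8, 12.7, 12.4 and 8.62, -0.57) were low in IM-DSF alone. HJURP, which loads the centromeric histone, was named after its value was seen: 8.05, 7.58 and 7.12 FPKM in CTR, DSF and IM, and 1.95 in IM-DSF (-1.38). MKI67, the Ki-67 gene, was low wherever DSF was given (24.5, 10.99, 27.8 and 7.76 FPKM) and departed by -0.63.

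Autophagy (31 genes, median 0.09, 21 above 0) and lysosome lists (36 genes, 0.07, 23 above 0) lay slightly above 0. GABARAPL1, a conjugate of the autophagosome membrane, had 2.40 FPKM in CTR cells, 0.952 with DSF, 3.81 with IM and 5.56 with the combination. It was low with DSF alone and highest with both (departure 1.25, ratio of ratios 3.68, 2.59 to 5.23). MAP1LC3B, the related LC3B, was low in IM alone (3.27, 3.57, 1.70 and 4.27 FPKM, 0.86). DNASE2, the acid DNase of lysosomes, had 1.75, 2.09, 5.91 and 13.1 FPKM (0.86), and the protease gene CTSS 11.4, 8.55, 10.2 and 14.5 (0.85). The E-box of lysosome genes, CACGTGAC searched on both strands, was in 7 of 72 promoter windows of positive genes (9.72%) and 2 of 73 of negative genes (2.74%), against 5.03% of those of all genes examined. These windows are of called genes of any kind, and no share was taken for the lysosome list. Elements for heat shock, STAT, interferon, sterol, ATF4 and AP-1 were searched as well and are not described here.

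In glycolysis (18 genes, median 0.04, or -0.01 without overlapping genes), the lactate carrier SLC16A1 stood out. It had 21.8 FPKM untreated, 18.5 under DSF, 15.2 under IM and 4.80 under both, so each drug alone went with a modest decrease and both with a level below the additive 12.9 (departure -1.26, ratio of ratios 0.372, 0.323 to 0.429). LDHA, which makes the lactate, had 68.9, 53.3, 38.3 and 44.8 FPKM (0.58) and overlaps another gene on its strand.

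The genes that departed furthest came from no single pathway, and many of the extremes were crossed. ZNF672, a zinc finger gene at chr1:248838210-248849517, had 1.59 FPKM in CTR cells, 6.32 with DSF, 6.78 with IM and 1.37 with the combination (-3.22). MAPK14, the stress kinase p38 alpha at chr6:36027677-36111236, had 8.65, 21.1, 22.5 and 7.89 FPKM (-2.596), and ADNP, a chromatin factor, 3.25, 10.2, 10.3 and 4.58 (-2.43). In these genes each drug alone went with a more than 2-fold higher level, and the combination lay nearer to CTR than to either single drug. SZRD1 (7.21, 20.3, 19.7 and 6.35 FPKM, -2.87) and JAGN1, needed for neutrophil function (9.84, 17.2, 16.1 and 7.54, -1.75), had the same shape. The mirror shape was that of SNX10, an endosomal sorting nexin at chr7:26291895-26374329, with 9.64, 3.04, 3.70 and 13.0 FPKM (2.97, ratio of ratios 11.2, 8.78 to 14.2). It was shared by PDPR, a regulator of pyruvate dehydrogenase phosphatase (5.19, 2.11, 1.85 and 6.31, 2.35), and by the ribosomal protein gene RPL29 (147, 93.1, 91.0 and 195, 1.74, and 1.68 with 16 pseudogenes).

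Another set stood apart only where both drugs were given. RASSF2, a RAS-binding tumor suppressor, had 32.6, 30.6 and 31.9 FPKM in CTR, DSF and IM and 8.69 in IM-DSF (-1.67, ratio of ratios 0.290, 0.262 to 0.322). MRPL34, a mitochondrial ribosomal protein, had 8.38, 7.30, 7.399 and 1.49 (-1.58). In the other direction TSN, translin, had 4.81, 4.77, 3.46 and 12.7 FPKM (1.63). YTHDF3, a reader of methylated mRNA, had 2.57, 2.58, 2.38 and 7.72 (1.36), and RNMT, the mRNA cap methyltransferase, 3.50, 2.61, 2.95 and 7.09 (1.35). FAM53C (3.07, 2.96, 2.78 and 8.25, 1.33) and APOBR, a lipoprotein receptor (2.73, 2.73, 3.44 and 10.1, 1.32), followed the same course. These departures rest on the IM-DSF library alone.

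In a further set a single-drug library stood apart, and the combination lay nearer to CTR than to that library. With IM alone low, SUMO3, a ubiquitin-like modifier, had 62.4, 63.0, 20.5 and 56.8 FPKM (1.41), GRPEL2, a mitochondrial chaperone factor, 7.10, 6.34, 1.48 and 4.59 (1.32), and PTP4A3, a phosphatase, 7.02, 4.73, 0.903 and 4.30 (1.964). With IM alone high, DUSP3, another phosphatase, had 1.69, 2.38, 10.99 and 3.38 FPKM (-1.78), FAM217B 1.29, 1.44, 7.39 and 1.18 (-2.04) and CCDC137 3.77, 3.91, 8.19 and 2.39 (-1.48). With DSF alone apart, ZNF24 was low (10.2, 2.98, 10.8 and 11.2 FPKM, 1.54) and MDFIC, a transcription inhibitor, high (1.65, 5.76, 1.75 and 1.46, -1.51). In other genes CTR alone stood apart, and the combination lay nearer to the single drugs. The adhesion adaptor LIMS1 (5.24, 1.30, 1.14 and 1.79, 1.82) and the splicing protein SNRPD2 (58.3, 27.8, 26.7 and 33.7, 1.36) were high in CTR, and the nuclear factor AKIRIN1 was low there (9.61, 23.6, 27.2 and 18.3, -1.76). RBM38, an RNA-binding protein, was graded (7.53, 6.49, 12.5 and 3.33, -1.46).

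Many called genes overlap another gene. A same-strand overlap was present in 46.5% of positive and 43.8% of negative genes, against 34.6% of all genes examined. Summed with their partners in the table, 22 of 48 such positive and 15 of 41 such negative genes were still past the limit in the same direction. A partner can be the more abundant gene, which shrinks the departure of a sum whether or not reads are shared. TXNDC5 had 115 FPKM in CTR and 20.8, 19.9 and 18.3 in DSF, IM and IM-DSF (2.30), while its readthrough gene BLOC1S5-TXNDC5 was listed at 0, 163, 137 and 139. ERCC5 had 12.1, 6.02, 6.61 and 15.5 (2.01), and BIVM-ERCC5 was listed at 0, 19.4, 24.2 and 0, a crossed shape of the opposite direction. Summed with their partners, TXNDC5 departed by -0.67 and ERCC5 by -1.32, so both changed sign. The largest departures of all belonged to overlapping clone-named genes, AC022384.1 (3.24, or 0.23 when summed) and AC011511.4 (-4.71, or -1.55 when summed, and listed at 0 outside DSF). ZNF664 (14.6, 3.30, 4.32 and 11.2 FPKM, 3.05) and STX16 (2.04, 6.05, 5.05 and 1.60, -2.43) kept departures of 2.997 and -2.17 when summed. Among the 30 called genes with pseudogenes of the same name in the table, 13 of 18 positive and 10 of 12 negative stayed past the limit when these were added. Whether isoform or read assignment takes part in the crossed shapes was not tested.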

How the data were processed

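The authors deposited 1 table of FPKM values for 50868 genes with 1 column a library, per the file headers. The submitters' processing notes list HISAT2 2.0.4 and GRCh38.p14. Not given in the sources used here: the counter, annotation release and strand setting. Departures were computed on log2(FPKM + 1) (pseudocount 1), which understates changes of low genes. Genes averaging under 1 FPKM were left out (Python 3.11.15, numpy 2.4.6, pandas 2.3.3, matplotlib 3.10.9). GENCODE 29 matched 9809 of 9822 genes and gave biotypes, exon lengths and overlaps. Library denominators were taken from 2798 to 2901 single-exon genes of up to 30 fragments, of which 96.1% to 96.6% gave whole fragments within 0.05. Fragment numbers from exon lengths are approximate, so no count model was used. The 95% intervals cover counting error only, and PCR copies make them too narrow. The calculation was tested on simulated data.

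Members and the 43 gene lists were chosen with earlier results of these data known. Named were the 14 largest departures in each direction among protein-coding genes with 5 FPKM in a library and no same-strand overlap, 4 with overlap, up to 3 members a list in the direction of its median plus those past 1, GPX4, BCR and ABL1, and the 2 nearest genes on each side of the limit. Other genes named in the text, such as list members against the median, were chosen after their values were seen. The departure was recomputed with a pseudocount of 0.1, without the filter, with 5 FPKM as the filter, in TPM, and with median-of-ratios and trimmed-mean factors, median centring, protein-coding genes without overlap, or additivity in plain FPKM. Summing overlapping genes or pseudogenes was chosen after seeing the data.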

Additional observations from a re-analysis of the deposited data

Results flagged for a closer look

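In 8 named genes the DSF difference passed 1 log2 unit in opposite directions without and with IM. With 1 library a group, the difference between these effects was not tested. DSF went with a lower level without IM and a higher level with IM in ZNF664 (departure 3.05), AC023055.1 (3.03) and SNX10 (2.97). It went with a higher level without IM and a lower level with IM in ADNP (-2.43), STX16 (-2.43), MAPK14 (-2.596), SZRD1 (-2.87) and ZNF672 (-3.22). AC023055.1 overlaps 3 genes of the table on its strand, and summed with them its departure was -0.24.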

How the results depend on the processing

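The number of genes past the limit depended most on the treatment of low values. The 127 positive and 112 negative genes became 228 and 228 with a pseudocount of 0.1, and 49 and 44 with a mean of at least 5 FPKM. Without a filter there were 182 negative genes. Rescaling to TPM, in which a pseudocount of 1 weighs less, gave 221 positive genes. Protein-coding genes without a same-strand overlap, a smaller set, gave 62 and 55. Median-of-ratios and trimmed-mean factors, centring, plain FPKM additivity (100 and 90), summed overlapping genes (101 and 86) and summed pseudogenes stayed within 1.5 times. The SD of the departure ran from 0.245 to 0.503. No named gene changed sign under the settings in which single genes were recomputed, that is all but plain FPKM additivity and the sums. The median of the STAT5 targets turned from -0.10 to 0.0137 with a mean of at least 5 FPKM, and that of the 3 megakaryocyte genes from -0.19 to 0.30 without overlapping genes. Without overlapping genes the medians of the monocyte (-0.05), fatty acid synthesis (-0.07), glycolysis (-0.01) and metal response (0.09) lists also turned, as did the monocyte median without a filter (-0.01). The NRF2 median was 0.15 with a mean of at least 5 FPKM and 0.09 without a filter. The causes were not tested. No paired analysis was possible because each group has 1 library. Leaving out a library was not possible, since the departure needs all 4.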

Other observations

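Some lists outside the account above held members low only in the combination. Among 36 nuclear genes of the respiratory chain (median -0.07), 5 (13.9%) lay at -0.5 or less, against 6.04% of all genes. NDUFA1, of complex I, had 81.2 FPKM untreated, 66.6 under DSF, 74.3 under IM and 39.1 under both (-0.63), and COX6C, of cytochrome oxidase, 80.7, 71.5, 76.8 and 44.4 (-0.60). ATP5F1B, the catalytic subunit of ATP synthase, was highest there (94.6, 93.9, 79.6 and 114 FPKM, 0.52), with a same-strand overlap.

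Interferon-stimulated genes (18, median 0.07) diverged: ISG15, a ubiquitin-like modifier, had 1.80, 2.27, 2.597 and 1.398 FPKM (-0.81), and DDX58, the RNA sensor RIG-I, 3.22, 2.57, 3.41 and 4.57 (0.58). The chemokine gene CXCL8 was highest in IM-DSF (4.86, 4.22, 4.83 and 7.54 FPKM, 0.72). LMO2, a hematopoietic transcription cofactor, was about as high in each treated library (9.50 FPKM in CTR, then 23.8, 28.2 and 24.4, -1.44), and so was RBPJ, the DNA-binding partner of Notch (6.06, 16.6, 17.6 and 19.4, -1.19). RN7SL1 is listed on 2 rows for nearly the same stretch of chromosome 14, with departures of 2.89 and -2.44.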
